A study of Mus musculus with 16 samples.

Results

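Open chromatin of mouse embryonic stem (ES) cells that lack Supt7l was set against that of wild-type (WT) cells. The material was the 8 ATAC-seq libraries of these lines, 4 of Supt7l knockout (KO) and 4 of WT, out of 16 libraries in all. The other 8 were 4 AID-Zzz3 and 4 AID-Yeats2 libraries, lines in which a subunit of the ATAC complex carries a degron that auxin switches on. All 4 lines are E14 cells, and all of them, WT and Supt7l KO included, were given auxin for 24 h. They were cultured on gelatine in serum with LIF at 1500 U/ml and the inhibitors CHIR99021 at 3 µM and PD0325901 at 1 µM, so both groups share the auxin and the inhibitors. The series text mentions 2 independent clones and 2 days, which the labels do not tie to single libraries, so a difference between clones and the loss of Supt7l cannot be told apart. The p-values measure the spread between the 4 libraries of a line, pooled over all 4 lines. Of the 70150 peaks in the deposited table, the 66134 that lie on autosomes, outside chromosome 14 from 60 Mb and chromosome 17 from 70 Mb, are described here. Of these, 65705 passed the filter on low counts and 429 did not.

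Supt7l is a subunit of the core of SAGA, a coactivator complex that acetylates histone H3 through Kat2a or Kat2b and removes ubiquitin from histone H2B, and that is recruited to promoters by transcription factors. The ATAC complex carries the same acetyltransferases on a different scaffold. In ATAC-seq the Tn5 transposase cuts and tags DNA that nucleosomes leave open, so a peak marks an accessible promoter, enhancer or other regulatory element and its read count is a measure of how accessible it is.

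The promoter windows of 4 genes at which accessibility differed are shown first, because the peaks described below for Plagl1, Nap1l5, Aen and Cdkn1a lie over them. Each runs from 250 bases before to 50 after a RefSeq transcription start site (TSS) in build GRCm38.p6, the assembly also called mm10, written 5′ to 3′ with every CG dinucleotide in capitals. CG was counted because it is the site of mammalian DNA methylation, and since it reads the same on both strands 1 count covers both.
Plagl1, chr10:13090582-13090881, plus strand: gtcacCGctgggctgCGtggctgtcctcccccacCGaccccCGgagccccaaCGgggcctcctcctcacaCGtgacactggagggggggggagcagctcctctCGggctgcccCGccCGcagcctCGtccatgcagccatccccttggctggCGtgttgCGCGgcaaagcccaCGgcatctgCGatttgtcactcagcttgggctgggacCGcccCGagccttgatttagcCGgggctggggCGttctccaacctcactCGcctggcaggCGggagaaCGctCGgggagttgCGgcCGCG
Nap1l5, chr6:58907077-58907376, minus strand: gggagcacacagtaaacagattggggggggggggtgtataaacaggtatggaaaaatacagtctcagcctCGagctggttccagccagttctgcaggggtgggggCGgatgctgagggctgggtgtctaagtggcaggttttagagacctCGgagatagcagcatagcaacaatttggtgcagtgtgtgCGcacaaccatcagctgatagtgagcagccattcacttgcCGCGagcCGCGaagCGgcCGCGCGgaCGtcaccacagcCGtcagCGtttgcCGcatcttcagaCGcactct
Aen, chr7:78895677-78895976, plus strand: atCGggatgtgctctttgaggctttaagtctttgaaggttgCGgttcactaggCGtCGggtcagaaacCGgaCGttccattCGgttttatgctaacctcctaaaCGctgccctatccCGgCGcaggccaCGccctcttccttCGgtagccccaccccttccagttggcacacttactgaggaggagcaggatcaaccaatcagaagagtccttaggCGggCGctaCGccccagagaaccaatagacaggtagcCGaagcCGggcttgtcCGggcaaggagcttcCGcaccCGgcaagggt
Cdkn1a, chr17:29090729-29091028, plus strand: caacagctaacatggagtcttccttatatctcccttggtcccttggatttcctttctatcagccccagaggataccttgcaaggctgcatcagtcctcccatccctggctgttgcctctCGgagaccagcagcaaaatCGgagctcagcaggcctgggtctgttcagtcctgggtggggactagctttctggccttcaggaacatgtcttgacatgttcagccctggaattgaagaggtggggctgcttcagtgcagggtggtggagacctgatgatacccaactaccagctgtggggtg
The 32851 RefSeq windows of this kind held a median of 7 CG. For the 8970 promoter peaks that held a RefSeq start of their gene, the median was 21. The Plagl1 window held 26, a number reached by 16.9% of windows, and the Nap1l5 window 17, reached by 31.4%. The Aen window held 20, reached by 26.5%, and the Cdkn1a window 2, reached by 85.9%. Among the other named promoters with such a window, the lower Eml2 held 12, and the higher Zfp959 and Lrfn4 held 14 and 25, so that the counts of lower and higher promoters overlapped. A check of composition over all promoter peaks is void, since only 50.4% of the 17800 promoter peaks held a RefSeq start of their gene.

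Supt7l itself gave no check of the knockout. No peak had it as its nearest gene, and the only peak that overlaps the gene (chr5:31526474-31527660) lies over the start it shares with the neighbouring Slc4a1ap. Levels are given as CPM, read counts relative to all reads in peaks of the library after scaling by TMM (trimmed mean of M-values). They were 15.5, 18.96, 14.2 and 15.1 in WT and 20.6, 14.7, 14.1 and 16.6 in Supt7l KO at this peak. The groups overlapped, with a log2 difference of 0.06 ± 0.19 (SE, adjusted p = 0.937 by edgeR's quasi-likelihood F test). Accessibility of a promoter says nothing of a deletion elsewhere in the gene. Total counts in peaks ran from 4251953 to 5540559 in WT and from 3328620 to 4924352 in Supt7l KO, and the 2 ranges overlapped. Promoters of cell type markers were described as well. Of the ES cell markers, all 8 of Pou5f1, Sox2, Nanog, Esrrb, Zfp42, Klf4, Tfcp2l1 and Dppa5a had a tested promoter peak. Their summed level was 250.03 to 288 CPM in WT and 296 to 311 CPM in Supt7l KO. Of 7 fibroblast markers, 3 had a promoter peak, at a summed 46.4 to 56.2 CPM in WT and 38.5 to 49.5 CPM in Supt7l KO, while Col3a1, Thy1, Postn and Prrx1 had none. The 3 primitive endoderm promoters with a peak (of 5 looked for) summed to 160.0 to 190.0 CPM and 172 to 205 CPM, and the 4 trophoblast promoters to 56.3 to 65.5 CPM and 54.5 to 68.8 CPM. The sums cover unequal numbers of genes. In WT the primitive endoderm promoters of Sox17, Pdgfra and Gata6 held means of 115, 32.3 and 25.3 CPM. The highest of the 8 ES cell promoters, Esrrb, held 49.1 CPM and Pou5f1 16.2 CPM. Promoter levels thus do not tell these cell types apart and are no check of the ES cell label. No marker promoter passed the test in either direction. The ES cell sums did not overlap between the groups, and the part of such a difference in the results below was not tested.

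Accessibility differed at few elements, and the differences were mostly losses at elements far from promoters. At an adjusted p under 0.05 over all 69692 tested peaks of the table, 363 of the 65705 peaks were lower in Supt7l KO (0.552%) and 109 were higher (0.166%). Over the whole table these shares were 0.745% and 0.342%. The lower peaks had a median log2 difference of -1.04, from -3.80 to -0.42, and 196 of them lay beyond 2-fold. The higher peaks had a median of 0.90, from 0.39 to 1.70, with 43 beyond 2-fold. Among lower peaks the median level was 12.8 CPM in WT and 6.35 CPM in Supt7l KO, and among higher peaks 9.21 CPM and 17.9 CPM. All 4 Supt7l KO libraries lay outside the WT range at 313 of the lower and 94 of the higher peaks, against 3.59% of all tested peaks below the WT range and 2.97% above it. In the plot of level against change, the called peaks form 2 edges of a cloud that is centred on 0, whose median was 0.00.

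**Figure D1:**
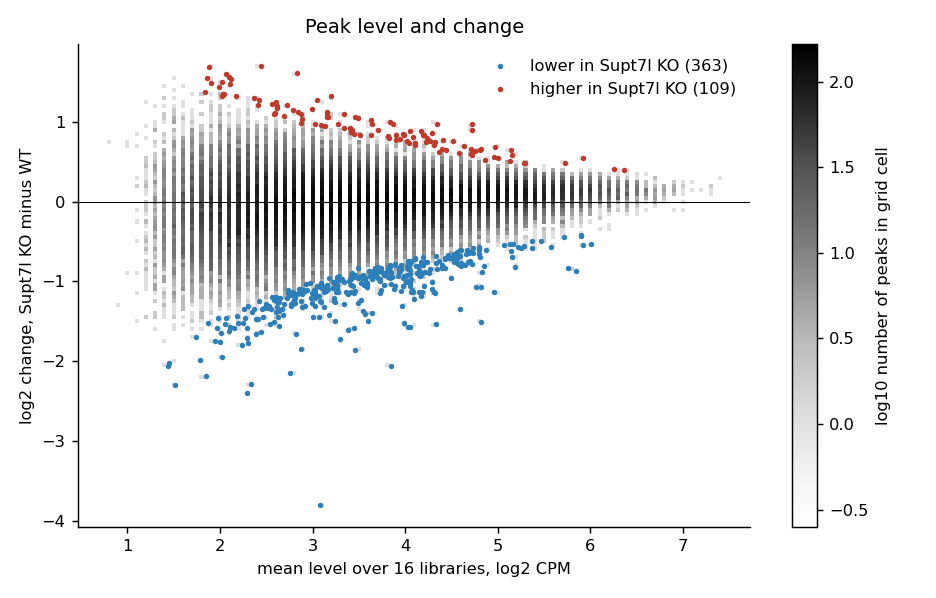
Log2 change of each tested peak (Supt7l KO minus WT, vertical axis) against its mean level over the 16 libraries (log2 CPM, horizontal axis), with the number of peaks per grid cell in grey on a log10 scale. The 363 lower peaks are blue and the 109 higher ones red, and the single blue point at -3.80 is the peak upstream of Meg3.

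These counts depend on single libraries. Without WT replicate 3 the test left 91 lower and 18 higher peaks, and without WT replicate 2 it left 117 and 29. Leaving out Supt7l KO replicate 4 gave 182 and 44, and the other Supt7l KO libraries gave 228 to 230 lower and 61 to 80 higher peaks. Deviations of WT and Supt7l KO libraries were weakly correlated within the set of replicates 1 and 2 and within that of replicates 3 and 4 (0.02 to 0.09). Between the sets the correlations were -0.09 to -0.02. Tested within replicates 1 and 2 alone there were 49 lower and 11 higher peaks, and within replicates 3 and 4 there were 156 and 80. More peaks were lower than higher in each of these fits. With counts simulated at the real levels, the same test found 90% of peaks changed by -2 on the log2 scale and 40% of those changed by -1, and 100% and 66% of those changed by 2 and 1. Losses were thus found less often than gains of the same size in the simulation, and differences of either kind can be missed.

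Promoters and distal elements differed. Of the 17800 peaks within 1000 bp of a TSS, 31 were lower (0.174%) and 20 higher (0.112%), and their median log2 difference was 0.08. The order of these counts is not firm: with the replicate number as a block 49 were lower and 53 higher, with the replicate sets as a block 55 and 62, and without WT replicate 3 there were 12 and 1. Of the 41308 distal peaks, more than 3000 bp from a TSS, 309 were lower (0.748%) and 80 higher (0.194%), and the median was -0.05. Distal peaks thus made up 85.1% of the lower peaks and 62.9% of the tested ones. The share of lower peaks was 0.349% at 1 to 3 kb, 0.564% at 3 to 10 kb, 0.819% at 10 to 100 kb and 1.24% beyond 100 kb. It was larger in each zone than in the one before, while the share of higher peaks stayed between 0.112% and 0.259%. Peaks annotated as intergenic were lower in 199 of 21341 cases (0.932%), and peaks in introns in 116 of 23890 (0.486%). The contrast was also present within bins of WT level. These bins are drawn from the same WT libraries that enter the change, and the highest has no upper limit. They thus do not match promoter and distal peaks for level, and the part of level in the contrast was not tested. In the highest of 4 equal bins of WT level, 92 of 5592 distal peaks were lower (1.65%) against 8 of 9805 promoter peaks (0.0816%). In the other 3 bins, from low to high, 0.224%, 0.645% and 1.03% of distal peaks were lower against 0.0628%, 0.127% and 0.470% of promoter peaks.

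The same contrast was seen in every Supt7l KO library. The median log2 deviation from the WT mean over promoter peaks minus that over distal peaks was 0.01, -0.03, -0.04 and 0.04 in the WT libraries and 0.11, 0.15, 0.08 and 0.13 in the Supt7l KO libraries. All 4 Supt7l KO values lay above all 4 WT values, with means of 0.12 ± 0.03 and -0.01 ± 0.03 (SD, n = 4). Replicates 1 and 2 alone gave 0.14 for the difference of 0.12, and replicates 3 and 4 gave 0.11; it was 0.0553 when level-dependent differences between libraries were removed with loess offsets. The share of reads in promoter peaks was 47.9 to 49.3% in Supt7l KO and 46.2 to 47.3% in WT. The lines that lose ATAC subunits lay on the other side of WT, at -0.16 ± 0.06 for AID-Zzz3 and -0.17 ± 0.01 for AID-Yeats2. None of 243 bins of 10 Mb along the chromosomes had all 4 Supt7l KO libraries shifted by more than 0.2.

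**Figure D2:**
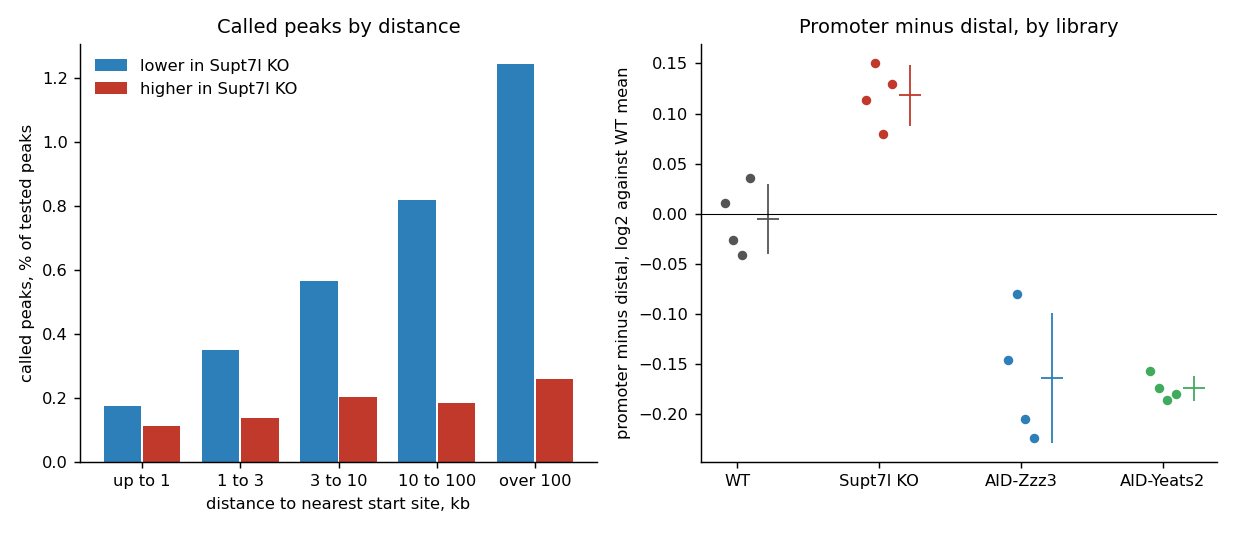
Left, called peaks as a percentage of the tested peaks in each zone of distance to the nearest start site (kb), with lower peaks in blue and higher ones in red; the blue bars grow from 0.174% to 1.24%. Right, the promoter minus distal difference of each library (log2, against the WT mean) as points, with mean and SD of 4 libraries beside them; Supt7l KO lies above WT and both AID lines below it.

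The largest loss lay upstream of Meg3, a maternally expressed imprinted gene for a noncoding RNA. At the peak upstream of its start (chr12:109538791-109539446), the WT libraries held 6.33, 13.9, 11.5 and 5.26 CPM and the Supt7l KO libraries 1.47, 0.420, 0 and 0.552 CPM. The peak over its first exon (chr12:109542730-109543791) held 12.1, 13.9, 16.2 and 13.1 CPM in WT and 3.43, 3.36, 3.08 and 3.31 CPM in Supt7l KO. All Supt7l KO libraries were low at both, with log2 differences of -3.80 ± 0.43 and -2.06 ± 0.26 (SE, adjusted p = 3.39e-09 and 1.78e-07 by edgeR). All 4 tested peaks between positions 109499678 and 109543791 of chromosome 12 were lower, by -3.80 to -1.73, and this was the only run of 3 or more called peaks with gaps under 100 kb.

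Plagl1 and Nap1l5 are imprinted as well, although Nap1l5 is not on the list of imprinted genes used here. Plagl1 encodes a zinc finger transcription factor, and the lower peak (chr10:13090269-13091507) covers the CG-rich window printed above, 1 of several start regions of the gene. The annotation also places there the start of a noncoding RNA, the hydatidiform mole associated and imprinted transcript. Levels at this peak were 21.8, 48.3, 39.4 and 19.4 CPM in WT and 6.38, 10.7, 16.3 and 12.7 CPM in Supt7l KO. The WT libraries were widely spread, yet the lowest of them exceeded the highest Supt7l KO library (log2 difference -1.51 ± 0.24, adjusted p = 5.95e-05 by edgeR), while DESeq2 did not call the peak (adjusted p = 0.0508). No other tested Plagl1 peak was called; the peak over the start at 13060354 had 22.8 ± 3.42 CPM in WT and 24.9 ± 6.69 CPM in Supt7l KO. Nap1l5, a nucleosome assembly protein relative encoded within an intron of Herc3, had 19.4, 33.3, 37.6 and 26.3 CPM in WT and 13.5, 12.6, 14.5 and 14.9 CPM in Supt7l KO at its promoter (chr6:58906430-58907681). Here too the groups did not overlap, which the rule for naming this peak required. The log2 difference was -1.08 ± 0.17 (adjusted p = 5.99e-05 by edgeR), whereas the Herc3 promoter had 33.3 ± 7.47 and 39.3 ± 4.56 CPM (adjusted p = 0.525 by edgeR).

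Most imprinted genes did not follow. Of the 28 imprinted genes on the list with a tested promoter peak, 2 were lower and 0 higher, against 27 lower and 12 higher of 14696 promoters over all genes, and the median was -0.02 against 0.09. Here each gene counts once, by its promoter peak with the highest mean level. Of 102 tested peaks nearest to the listed genes, 5 were lower (4.90%, beside 0.552% of all tested peaks described here), a count that was 3 without WT replicate 2 or 3 and without Supt7l KO replicate 1, 2 or 3. Besides both Meg3 peaks and the Plagl1 peak these were a peak 12064 bp from a Peg3 start (5.75 ± 1.11 CPM in WT, 2.49 ± 0.371 CPM in Supt7l KO) and a peak 11412 bp from a Rasgrf1 start (11.3 ± 1.18 and 5.85 ± 1.58 CPM), named here after their values were seen. Counted by that 1 peak per gene, the listed promoters that did not pass the test had log2 differences from -0.53 at Impact to 0.37 at Airn. A weaker Gnas promoter peak, not counted there and not called, gave 0.42. Grb10 gave -0.42 (adjusted p = 0.0844 by edgeR), Mcts2 -0.31, Kcnq1ot1 -0.10 and Peg3 -0.02.

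Outside imprinted genes, the named lower peaks lay on several chromosomes. The naming rule leaves out predicted genes and, except for peaks taken from gene lists, weak peaks and peaks whose groups overlap. Weaker peaks near Klhl8, Igfbp3 and Kcnh8, mentioned after their values were seen, had larger differences, of -2.30, -2.29 and -2.19. One named peak lies in an intron of Slc2a9, a urate transporter gene (chr5:38493910-38495338), at 25.5, 23.1, 25.7 and 24.4 CPM in WT and 9.32, 9.44, 11.1 and 9.11 CPM in Supt7l KO. Its replicates were tight and the groups far apart (log2 difference -1.35 ± 0.17, adjusted p = 2.28e-07 by edgeR). Near Dcdc2a, which encodes a doublecortin domain protein, a peak with an MTEb repeat held 27.0, 23.4, 21.0 and 17.9 CPM in WT and 9.57, 5.67, 9.53 and 6.35 CPM in Supt7l KO. The groups were again apart (log2 difference -1.54 ± 0.20, adjusted p = 2.76e-07 by edgeR). A peak 36006 bp from a start of Fads2, a fatty acid desaturase gene, fell by 1.59 on the log2 scale. An intron peak of Spred2, an inhibitor of Ras to ERK signalling, fell by 1.95, a call that was lost without WT replicate 3 or Supt7l KO replicate 4. The other distal named peaks lay near Olfr718-ps1 (log2 difference -1.86), BC028471 (-1.61), Tril (-1.50), Kif6 (-1.19), Ube2l6 (-1.16), Rpl39l (-1.14), Pfkfb3 (-0.97) and Gsc (-0.94), the last a homeobox gene of the gastrula organiser. Leaving out 1 library at a time, the call was lost in 7 of 8 fits at Pfkfb3, in 5 at Gsc and in 2 each at Ube2l6 and Rpl39l. Pfkfb3, whose product makes the glycolytic activator fructose-2,6-bisphosphate, was the only glycolysis gene with a called peak, and none of the 18 glycolysis promoters passed. At promoters, Eml2, for a microtubule-binding protein, was lower (18.96 ± 2.82 CPM in WT, 8.58 ± 1.67 CPM in Supt7l KO), as were an internal start of the metalloprotease gene Adamts1 (15.7 ± 2.56 and 7.38 ± 2.75 CPM) and the olfactory receptor gene Olfr13 (12.2 ± 1.84 and 6.42 ± 1.41 CPM), the last with its call lost in 5 of 8 such fits.

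**Figure D3:**
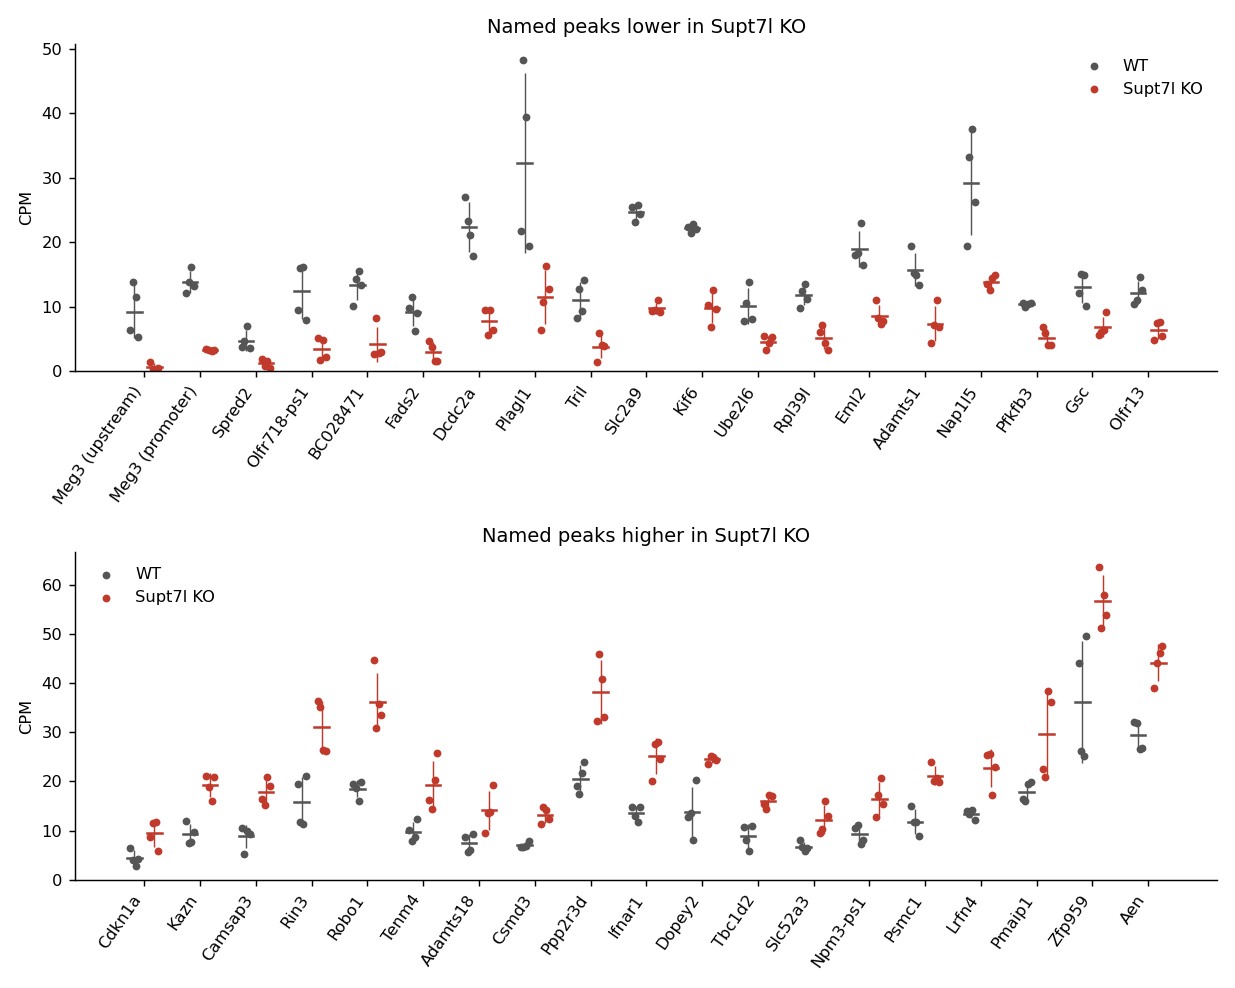
Level in CPM (vertical axis) of every WT library (grey) and Supt7l KO library (red) at the named peaks, with mean and SD of 4 libraries, for the 19 lower peaks (top) and the 19 higher peaks (bottom). The groups are apart at all of them except Cdkn1a, but the naming rule required this of every peak not taken from a gene list. The WT spread is widest at Plagl1.

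A share of the lost elements carried a long terminal repeat (LTR), the regulatory end of an endogenous retrovirus. Of 7448 distal peaks whose annotation names an LTR, 100 were lower (1.34%) and 17 higher, against 176 lower (0.626%) and 54 higher of 28099 distal peaks with no repeat. By family, 14 of 561 ERV1 peaks (2.50%), 60 of 4023 ERVK peaks (1.49%) and 22 of 2275 ERVL-MaLR peaks (0.967%) were lower. Of the lower ERV1 peaks, 11 carried LTRIS2, a repeat with 122 tested distal peaks that is described below. Of 1514 L1 peaks 8 were lower (0.528%), and of 1595 B2 peaks 1 was (0.0627%). Among the 58 repeat names with at least 50 distal peaks, LTRIS2, an ERV1 repeat, had the largest share of lower peaks and the lowest median, and it is described further for that reason, after its values were seen.

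At LTRIS2, 11 of 122 distal peaks were lower (9.02%) and 0 were higher. At any distance from a start, 14 of 144 LTRIS2 peaks were lower (9.72%), on 9 chromosomes, and 132 of 144 (91.7%) had a log2 difference below 0, against 49.6% of all tested peaks. The median over the 144 was -0.42, with quartiles at -0.69 and -0.21, and the median level was 10.1 CPM in WT and 7.21 CPM in Supt7l KO. The median deviation of the distal LTRIS2 peaks was -0.14, 0.18, 0.08 and -0.08 in the WT libraries and -0.39, -0.56, -0.31 and -0.36 in the Supt7l KO libraries. Every Supt7l KO library was below every WT library. The median of -0.42 ranged from -0.45 to -0.38 when any 1 library was left out, while the count of 14 dropped to 3 without WT replicate 2, to 4 without WT replicate 3, to 6 without Supt7l KO replicate 4 and to 8 without Supt7l KO replicate 2. Within replicates 1 and 2 the median was -0.53 and within replicates 3 and 4 it was -0.34.

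The LTRIS2 peak with the smallest p lies in an intron of Kif6, a kinesin gene (chr17:49780823-49782270), and held 22.4, 21.5, 22.8 and 21.99 CPM in WT and 10.3, 6.93, 12.6 and 9.66 CPM in Supt7l KO. The WT libraries were nearly equal and all Supt7l KO libraries were lower (log2 difference -1.19 ± 0.19, adjusted p = 6.72e-05 by edgeR). Another, nearest to the predicted gene Gm12804 (chr4:111218591-111220093), held 27.8, 37.7, 36.7 and 20.6 CPM in WT and 11.3, 10.1, 23.7 and 12.4 CPM in Supt7l KO. There Supt7l KO replicate 3 lay above WT replicate 4, so the groups overlapped (log2 difference -1.13 ± 0.19, adjusted p = 8.60e-05 by edgeR). The copies of such a repeat resemble each other, and how reads that match several copies were placed is not given in the sources used here, so the counts of single copies are uncertain.

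The ATAC lines lay on the other side of WT at LTRIS2. Medians of the distal peaks were 0.17 to 0.35 in the AID-Zzz3 libraries and 0.26 to 0.34 in the AID-Yeats2 libraries. In the direct comparison of Supt7l KO with the mean of both AID lines, which uses no WT library, 86 of the 144 LTRIS2 peaks were lower (59.7%) and 0 were higher, beside 8.17% and 8.28% of all tested peaks, and the median was -0.74 against 0.00. That comparison uses the Supt7l KO libraries by which LTRIS2 was picked out, so it is no independent support. The plot by repeat shows the same order of lines, with smaller differences, at ERV1 repeats as a whole, a class that includes the LTRIS2 peaks. At ERVK repeats as a whole Supt7l KO overlapped with WT, and at ERVL-MaLR repeats AID-Zzz3 did. Single repeat names differed. At RLTR9E, Supt7l KO lay at -0.19 to -0.05 and WT at -0.03 to 0.03, with both AID lines above WT. At RLTR13B2, Supt7l KO lay at -0.36 to -0.17 and WT at -0.15 to 0.26, with both AID lines above 0 but overlapping WT. At RLTR13C2 and RLTR9D Supt7l KO overlapped with WT.

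**Figure D4:**
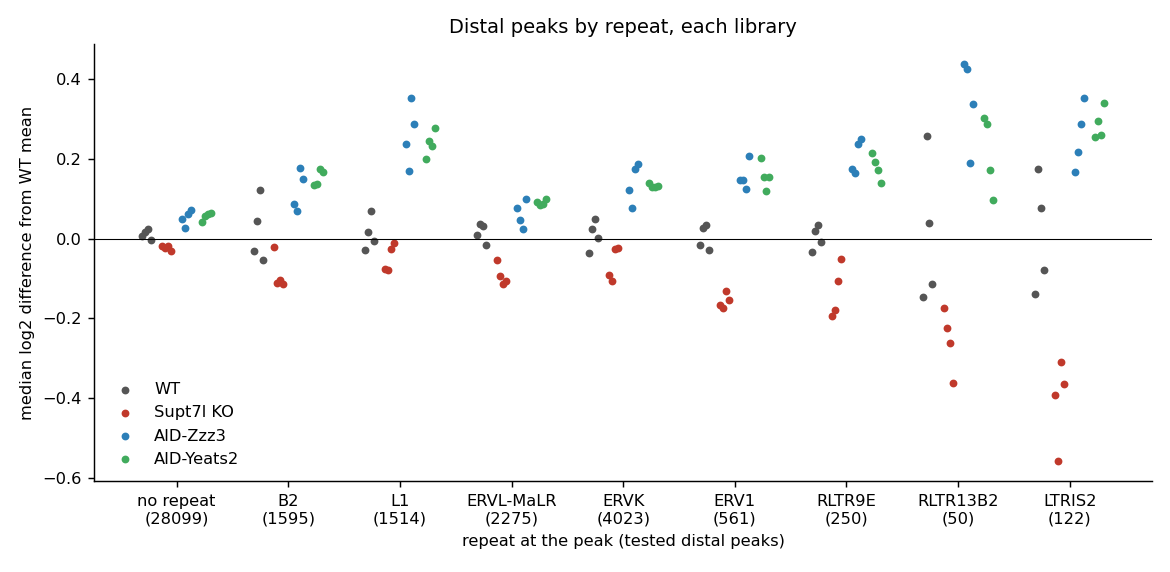
Median log2 difference from the WT mean (vertical axis) over the distal peaks of each repeat class, with 1 point per library and the number of tested peaks under each name. The Supt7l KO libraries (red) are lowest at LTRIS2, from -0.56 to -0.31, where the AID-Zzz3 (blue) and AID-Yeats2 (green) libraries lie above 0.

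Higher accessibility was found at single elements near genes of many kinds. An intron peak of Robo1, a Slit receptor gene (chr16:72785363-72786379), held 19.4, 18.7, 16.01 and 19.8 CPM in WT and 44.6, 30.8, 35.7 and 33.4 CPM in Supt7l KO. An exon peak of Ppp2r3d, for a regulatory subunit of protein phosphatase 2A (chr9:124438941-124440937), held 18.999, 17.3, 21.8 and 23.9 CPM in WT and 32.4, 46.0, 40.9 and 33.1 CPM in Supt7l KO. A peak with an ORR1C1 repeat, 4650 bp from a start of the interferon receptor gene Ifnar1, had 13.5 ± 1.50 CPM in WT and 25.1 ± 3.66 CPM in Supt7l KO. These 3 were the only named higher peaks that passed when any 1 library was left out; their log2 differences were 0.97 ± 0.17, 0.90 ± 0.16 and 0.89 ± 0.19 (SE, adjusted p = 0.000314, 0.000529 and 0.00396 by edgeR). An intron peak of Kazn, whose product binds periplakin, had 9.21 ± 2.09 CPM in WT and 19.2 ± 2.39 CPM in Supt7l KO, and lost its call without WT replicate 2 or 3. The other distal or intragenic named peaks lay near Camsap3 (log2 difference 1.00), which caps microtubule minus ends, Rin3 (0.98), Tenm4 (0.97), Adamts18 (0.92), Csmd3 (0.90), Dopey2 (0.85), Tbc1d2 (0.85) and the riboflavin transporter gene Slc52a3 (0.84). Promoter peaks of Npm3-ps1 (0.84), Lrfn4 (0.76) and Zfp959 (0.65), and an internal start of Psmc1 (0.83), which encodes a proteasome ATPase, were also higher. Each of these 12 lost its call when at least 1 library was left out.

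Among targets of p53, the tumour suppressor that arrests or kills cells with DNA damage, 3 of 59 tested peaks were higher (5.08%) and 0 were lower, beside 0.166% and 0.552% of all tested peaks described here. Aen, for a nuclease that acts in apoptosis, had a higher promoter (chr7:78895615-78896580), at 32.0, 31.9, 26.6 and 26.8 CPM in WT and 39.0, 44.1, 46.1 and 47.5 CPM in Supt7l KO. The groups did not overlap (log2 difference 0.59 ± 0.13, adjusted p = 0.0118 by edgeR). At Cdkn1a, which encodes the cell cycle inhibitor p21, the peak over the upstream start whose window is printed above (chr17:29090846-29091205) held 6.52, 3.93, 2.70 and 4.30 CPM in WT and 8.58, 11.5, 11.7 and 5.80 CPM in Supt7l KO. Replicate 4 of Supt7l KO lay below the highest WT library, and the adjusted p of 0.0435 (edgeR, log2 difference 1.10 ± 0.30) was just under the threshold. The second Cdkn1a start, at 29093463, had 20.9 ± 4.37 and 24.9 ± 8.59 CPM and did not pass. In an intron of Pmaip1, which encodes the apoptosis inducer Noxa, a peak (chr18:66460857-66461711) had 17.9 ± 2.01 CPM in WT and 29.5 ± 9.04 CPM in Supt7l KO (adjusted p = 0.0356 by edgeR). Without WT replicate 3 none of the listed p53 target peaks was called as higher, without WT replicate 2, Supt7l KO replicate 3 or Supt7l KO replicate 4 there was 1, and within replicates 1 and 2 there was none. Other p53 target promoters gave log2 differences of 0.46 at Perp (adjusted p = 0.0658 by edgeR), 0.37 at Phlda3, 0.19 at Bax and 0.01 at Mdm2. With 1 promoter peak per gene, 2 lay below 0, Rrm2b and Fas, both at -0.02. Of the 33 distal peaks of the list 0 were called, with a median of 0.17.

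Gene lists as a whole showed little beyond the shift of all promoters. Each gene is represented here by its promoter peak with the highest mean level, so weaker promoter peaks are not counted. The median promoter difference over 14696 genes was 0.09, with 12 promoters higher and 27 lower. The 19 p53 target promoters had a median of 0.19, with 1 higher and 0 lower. Cdkn1a entered with its second start, so its called upstream start is not in this count. The 17 SAGA subunit promoters had a median of 0.17, the 8 of the ATAC complex 0.11 and the 10 of TFIID, which shares several subunits with SAGA, 0.08, and 0 of these were called in either direction. Among naive pluripotency genes, 0 of 30 promoters and 0 of 104 distal peaks were called, with medians of 0.19 and 0.00. The formative and primed genes (13 promoters), neuroectoderm genes (13), mesendoderm genes (6) and fibroblast genes (9) had medians of 0.00, -0.01, -0.05 and -0.09, below that of all promoters. The lists of ribosomal proteins (73), replication-dependent histones (32), lysosome and autophagy genes (19) and unfolded protein and amino acid stress genes (17) had medians of 0.18, 0.18, 0.20 and 0.18. The 18 Hox promoters had a median of 0.20. Aside from the imprinted and p53 lists, 0 listed promoters passed in either direction; away from promoters, 1 distal peak each of the mesendoderm, glycolysis, FGF and ERK target and cytoplasmic ribosomal protein lists was lower.

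**Figure D5:**
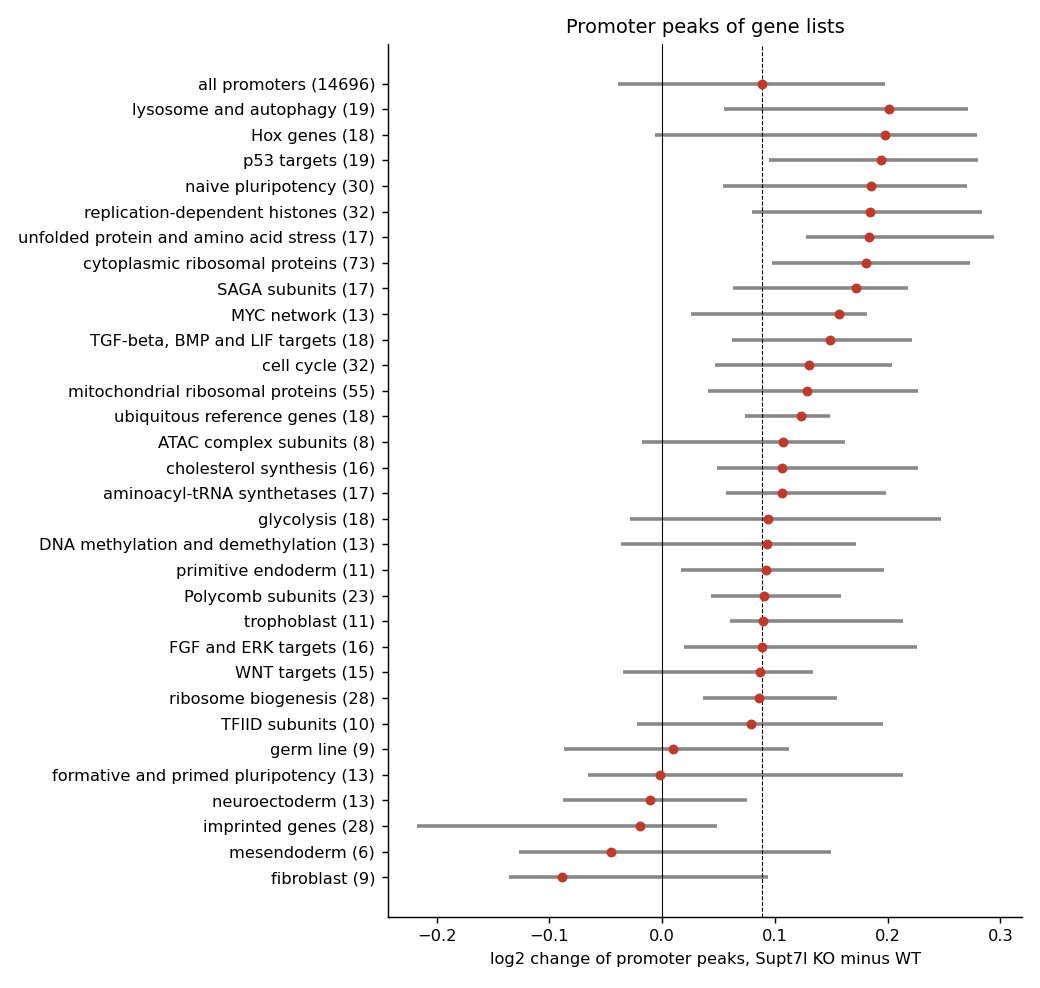
Median (red point) and quartiles (grey line) of the log2 difference of promoter peaks, Supt7l KO minus WT, for each gene list with at least 5 tested promoters, whose number stands in brackets. Each gene enters with 1 promoter peak, that of the highest mean level. The dashed line is the median of all promoters, 0.09. List medians run from -0.09 for fibroblast genes to 0.20 for lysosome and autophagy genes, with the imprinted list at -0.02 and the p53 list at 0.19.

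The lines that lose ATAC subunits are given beside Supt7l KO at the named peaks. In the direct comparison of Supt7l KO with the mean of AID-Zzz3 and AID-Yeats2 (adjusted p under 0.05 by edgeR), 33 of the 38 named peaks passed, among them all 19 lower peaks, beside 8.28% of all tested peaks higher and 8.17% lower. The peaks were chosen for their Supt7l KO values and the same libraries enter here, so this count is a description. The first-exon Meg3 peak had 18.99 ± 7.49 CPM in AID-Zzz3 and 20.3 ± 2.12 CPM in AID-Yeats2, the Slc2a9 peak 26.6 ± 4.15 and 33.5 ± 1.48 CPM, and the Nap1l5 promoter 29.1 ± 5.01 and 39.2 ± 5.20 CPM, so that each AID line stood far above Supt7l KO. The 5 exceptions were higher peaks: Psmc1, Slc52a3, Dopey2, Csmd3 and Camsap3. At Psmc1 and Slc52a3 both AID lines were above WT too, at 19.5 ± 2.56 and 19.9 ± 1.93 CPM for Psmc1 against 11.8 ± 2.47 CPM in WT. These comparisons with WT share the WT libraries; over all tested peaks described here, 0.641% were higher and 0.271% lower in AID-Zzz3, and 0.533% and 0.213% in AID-Yeats2. Zfp959, a zinc finger gene, stood out in the opposite sense, with 36.2 ± 12.4 CPM in WT, 56.6 ± 5.36 CPM in Supt7l KO and 25.0 ± 4.49 and 21.7 ± 4.54 CPM in the AID lines, of which AID-Yeats2 was lower than WT (adjusted p = 0.0153 by edgeR).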

How the data were processed

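The deposited table lists 1 merged set of peaks with the authors' raw read counts per peak and library, the unit used here. Per the submitters' processing notes, the tools, named without roles or order, were bcl2fastq 2.17.1.14, DESeq2 1.16.1, bedtools 2.26.0, HOMER, Bowtie2 2.2.6 and MACS2 2.1.1.20160309, with build mm10; distances, features and repeats are the HOMER annotation (Ensembl 94, per the file headers). The 16 columns of normalised values per library and the authors' fold changes were not used. Starts are 1-based.

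The tests were run in edgeR 4.0.16 (R 4.3.3): two-sided quasi-likelihood F tests on all 16 libraries, TMM scaling and filterByExpr, with Benjamini-Hochberg adjustment over 69692 peaks (458 removed). CPM are of TMM-scaled library sizes; a prior count of 2 went into log values of single libraries. Errors are SD of 4 libraries or SE of the log2 difference. Counts in peaks limit the precision, and PCR copies carry no molecular identifiers.

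Named peaks were called, above the median level (10.2 CPM) with groups that do not overlap, 1 per gene, predicted genes left out: the 12 largest differences each way, the 6 largest at promoters each way, and up to 3 called peaks from each of 32 gene lists, whatever their level or overlap. The members and lists were chosen with earlier results of these data known. Distance, feature, repeat, level, width and chromosome classes were all looked at. Replicate numbers did not pair the samples (same-number correlations of deviations 0.02 to 0.09). No library pair was a duplicate. The test was checked on simulated data (69498 peaks).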

Additional observations from a re-analysis of the deposited data

Results flagged for a closer look

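A difference from the mean of AID-Zzz3 and AID-Yeats2, tested directly (edgeR, adjusted p under 0.05 over all tested peaks), drew attention to 33 of the 38 named peaks; the values here are log2 differences, Supt7l KO minus that mean. Over all tested peaks 8.28% were higher and 8.17% lower in this comparison, and the named peaks were chosen for their values in the same Supt7l KO libraries, so the count of 33 is a description. At imprinted genes they were -4.05 and -2.55 for the upstream and first-exon peaks of Meg3, -1.56 for Plagl1 and -1.28 for Nap1l5. The other lower peaks gave -1.69 for Spred2, -1.90 for Olfr718-ps1, -1.33 for BC028471, -2.30 for Fads2, -1.65 for Dcdc2a, -2.004 for Tril, -1.62 for Slc2a9 and -0.95 for Kif6. Ube2l6 gave -1.44, Rpl39l -1.002, Eml2 -1.25, Adamts1 -1.34, Pfkfb3 -1.22, Gsc -0.69 and Olfr13 -0.77. Among higher peaks the p53 targets gave 0.40 for Aen, 0.96 for Pmaip1 and 1.19 for Cdkn1a. The remaining ones gave 1.28 for Zfp959, 0.78 for Lrfn4, 0.58 for Npm3-ps1, 0.94 for Tbc1d2, 0.97 for Ifnar1, 0.76 for Ppp2r3d, 0.55 for Adamts18, 0.97 for Tenm4, 0.55 for Robo1, 0.96 for Rin3 and 1.52 for Kazn.

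A library far from the other 3 of its group was found in 3 of 78 groups examined, where chance gives about 1 in 20. At BC028471, Supt7l KO replicate 2 held 8.18 CPM and the others 2.70 to 3.04 CPM. At Slc2a9, Supt7l KO replicate 3 held 11.1 CPM and the others 9.11 to 9.44 CPM. At Csmd3, WT replicate 4 held 7.89 CPM and the others 6.70 to 6.84 CPM.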

How the results depend on the processing

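Of the 38 named peaks, 37 were tested with a mean of at least 20 counts, and DESeq2 gave no adjusted p for Spred2. Where tested, 0 changed direction, and 16 kept their call in each of the 8 fits without 1 library. These 16 were Meg3 (both peaks), Olfr718-ps1, BC028471, Fads2, Dcdc2a, Plagl1, Tril, Slc2a9, Kif6, Eml2, Adamts1, Nap1l5, Ifnar1, Ppp2r3d and Robo1. Without 1 library the lower count ran from 91 to 401, the higher count from 18 to 142 and the promoter minus distal difference from 0.11 to 0.14 (0.0553 with loess offsets). Same-numbered libraries share only a number, and with the replicate number as a replicate block 543 peaks were lower and 211 higher; with the replicate sets (1 and 2 against 3 and 4) as a block, 569 and 231. Within replicates 1 and 2 there were 49 and 11, and within replicates 3 and 4 there were 156 and 80. The whole table, with the left-out segments and the sex chromosomes, gave 519 lower and 238 higher. Other scalings, filters and the DESeq2 test gave 267 to 498 lower and 82 to 130 higher, the extremes with only the 8 libraries of both groups, with library totals alone (498 and 82) and with DESeq2 (130). DESeq2 did not call Plagl1 (adjusted p = 0.0508), library totals alone did not call Cdkn1a or Slc52a3, and Slc52a3 was also lost with no filter and with the 8 libraries alone. The cause of these changes was not tested. Counts of groups of peaks by setting were added after seeing the data. At single peaks of 10 CPM the depth limits what can be called.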
